A study of Neurospora crassa with 19 samples.

Results

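Heat shock proteins and chaperones were described in Neurospora crassa, a filamentous fungus, through 7 genes chosen by name among the 9730 genes counted. They are hsp70-1 (NCU09602), hsp80 (NCU04142), hsp88 (NCU05269), hsp98 (NCU00104), hsp30 (NCU09364), hsp60 (NCU01589) and grp78 (NCU03982). The choice rested on gene names, and earlier results of these data were known when it was made. All 7 were counted in both libraries and all 7 passed the minimum used here for a detected gene, at least 10 counts in each library.

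The series compares strains of this fungus that carry or lack dim-1 (NCU06484), by its title a chromatin remodeler gene, in 19 samples, of which the RNA libraries were used here. The RNA came from a single group of 2 poly-A libraries from N5801, a strain labelled as a complete deletion of dim-1 and described as germinated conidia, which are asexual spores that have begun to grow. The cultures were shaken for 16 h at 32 °C in Vogel's minimal medium containing 1.5% sucrose. No wild-type RNA was used here, so nothing here says how a level compares with wild type. No heat-shocked culture was among the samples described. The labels do not say whether the duplicates came from separate cultures, so the spread between them may be technical.

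Chaperones bind unfolded stretches of other proteins and help them fold, assemble, cross membranes or return from aggregates. The families divide the work: Hsp70 proteins bind and release short hydrophobic segments in cycles of ATP hydrolysis, Hsp90 proteins finish the folding of kinases and receptors, chaperonins enclose a protein in a barrel, Hsp100 proteins pull proteins out of aggregates, and small heat shock proteins hold unfolding proteins without ATP. The cytosol, the mitochondrial matrix and the lumen of the endoplasmic reticulum each keep their own chaperones. Many of these genes are induced by heat through heat shock factor, while others serve growth at ordinary temperature.

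The 2 libraries held 17364963 and 13632746 counts over genes, and 7774 genes were detected. The dim-1 gene itself had 258 and 171 counts in the libraries labelled as its deletion, and gene-level counts do not show which part of the locus those reads came from. Vegetative growth genes were high in both libraries, with summed levels of 27045 and 36473 CPM (counts-per-million of the library's gene counts) for tef-1, pma-1 and cfp. The 5 spore genes con-6, con-8, con-10, eas and acon-3 were all detected and summed to 226 and 152 CPM. Of the 3 sexual development genes, only fsd-1 was detected, while fmf-1 had 0 counts in each (a floor of 3 counts of the library is 0.173 and 0.220 CPM), and sad-1 had 3 and 2 counts.

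The chaperone genes together took 0.421% of the gene counts in replicate 1 (73050 counts; exact Clopper-Pearson 95% interval 0.418 to 0.424%) and 0.476% in replicate 2 (64952 counts; 0.473 to 0.480%), or 0.449 ± 0.0394% (SD, n = 2). These intervals cover counting error only. To set genes of unequal length beside each other, CPM was divided by the gene's span in kilobases from start to end, introns included. All 7 genes lay above the median detected gene of both libraries, which was 13.3 CPM per kb in replicate 1 and 12.5 in replicate 2. The median of the 7 was 64.2 and 96.9 CPM per kb.

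**Figure D1:**
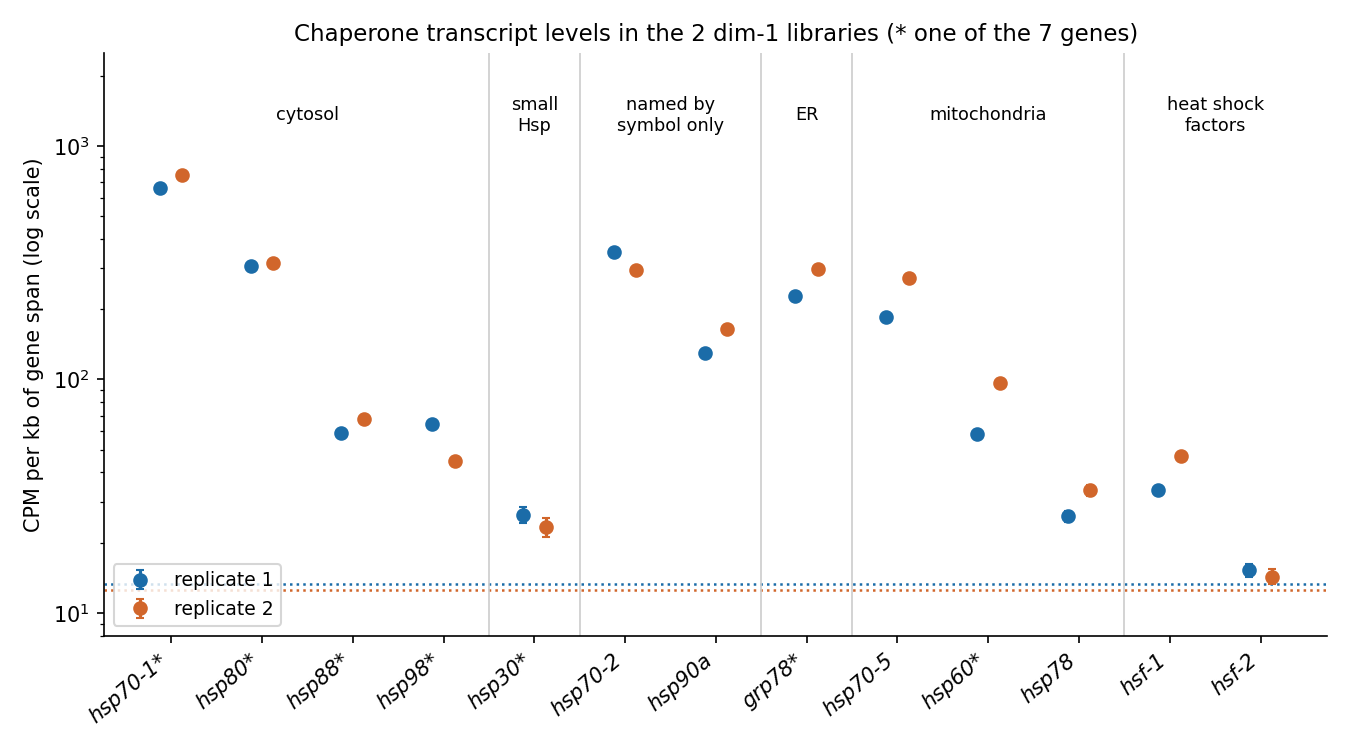
Level of each gene in CPM per kb of gene span (log axis) in replicate 1 (blue) and replicate 2 (orange), with exact Poisson 95% intervals on the counts; dotted lines mark the median detected gene of each library, and an asterisk marks the 7 genes. In both libraries hsp70-1 is highest of the genes drawn, hsp30 is lowest of the 7, and hsp88, hsp98 and hsp60 share a middle range.

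The cytosolic Hsp70 gene hsp70-1 was the most abundant of the 7 in both libraries. It had 34000 counts in replicate 1 and 30466 in replicate 2, or 1958 and 2235 CPM. Per kilobase of its span of 2970 bases this was 659 and 752 CPM per kb (706 ± 65.9; SD, n = 2), ranks 114 and 87 among the 7774 detected genes. That level was 49.7 times the median detected gene in replicate 1 and 60.1 times in replicate 2, so this gene was near the top of the transcriptome at the growth temperature of 32 °C. Of the genes with a symbol in the RefSeq table, the closest to it in level over the 2 libraries were eif5A (707 and 804 CPM per kb) and nfh-2 (615 and 811 CPM per kb).

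The Hsp90 gene hsp80, whose product takes proteins handed on from Hsp70, stood next in the cytosol. It had 16113 and 12920 counts, or 928 and 948 CPM. Per kilobase its level was 307 and 314 CPM per kb (311 ± 4.64; SD, n = 2), and its coefficient of variation between libraries, 1.49%, was the smallest of the 7. Its percentiles among detected genes, 96.7 and 96.6, were nearly equal as well. The closest genes in level were al-1 of carotenoid synthesis (298 and 302 CPM per kb) and the ribosomal protein gene crp-15 (312 and 338 CPM per kb).

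The Hsp110 gene hsp88, a distant Hsp70 relative whose protein was found to bind Hsp30 in Neurospora, was far below both. It had 3856 and 3481 counts, or 222 and 255 CPM. Per kilobase this was 59.1 and 68.0 CPM per kb (63.6 ± 6.27; SD, n = 2). Proteins of this family act as nucleotide exchange factors for Hsp70. The transcript of hsp70-1 exceeded that of hsp88 by nearly the same factor in both libraries, 11.1 ± 0.0584 (SD, n = 2). A link between the levels of these genes was not tested. The closest genes in level were pex11 (59.5 and 68.4 CPM per kb) and the proteasome ATPase gene rpt-4 (58.6 and 69.4 CPM per kb).

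The disaggregase gene hsp98, the Hsp100 member of the cytosol and the counterpart of yeast Hsp104, was expressed at a level like that of hsp88 in replicate 1 and below it in replicate 2. It had 4132 and 2251 counts, or 238 and 165 CPM. Per kilobase this was 64.2 and 44.6 CPM per kb (54.4 ± 13.9; SD, n = 2), at percentiles 86.2 and 80.3 among detected genes. The ratio of hsp70-1 to hsp98, a pair whose products act together on aggregates, was 10.3 in replicate 1 and 16.9 in replicate 2. This ratio differed more between the libraries than that of hsp70-1 to hsp88. The closest genes in level were cel-1 (60.3 and 43.6 CPM per kb) and dak-1 (57.7 and 45.0 CPM per kb).

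The small heat shock protein gene hsp30, whose alpha-crystallin type product gathers at mitochondria during heat shock, was the least abundant of the 7. It had 692 and 480 counts, or 39.9 and 35.2 CPM. Per kilobase of its span of 1514 bases, the shortest of the 7, this was 26.3 and 23.3 CPM per kb (24.8 ± 2.17; SD, n = 2), and hsp70-1 exceeded it 25.0-fold and 32.4-fold. Per kilobase it still lay at 1.98 and 1.86 times the median detected gene. In CPM not divided by span it was near the median, at percentiles 53.8 and 52.3. Its transcript was thus present without heat treatment in both libraries. The closest genes in level were fwd-1 (26.6 and 23.2 CPM per kb) and fbp-1 (26.9 and 23.7 CPM per kb).

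The mitochondrial chaperonin gene hsp60, whose product folds proteins newly imported into the matrix, varied most between the libraries. It had 2509 and 3278 counts, or 144 and 240.5 CPM, and was the only one of the 7 besides grp78 with more reads in replicate 2 despite the smaller library. Per kilobase this was 58.2 and 96.9 CPM per kb (77.5 ± 27.3; SD, n = 2), a coefficient of variation of 35.3%. It stood at percentile 84.7 in replicate 1, close to hsp88, and at 90.6 in replicate 2, above it. The closest genes in level were the kinase gene cot-1 (57.8 and 86.6 CPM per kb) and pca-2 (62.4 and 87.4 CPM per kb).

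The endoplasmic reticulum Hsp70 gene grp78, known in other fungi as BiP or Kar2, was at a level near that of cytosolic hsp80. It had 11748 and 12076 counts, or 677 and 886 CPM. Per kilobase this was 228 and 298 CPM per kb (263 ± 49.9; SD, n = 2), at percentiles 95.7 and 96.4. Its product binds proteins entering the secretory pathway. The closest genes in level were nuo9.8 (234 and 295 CPM per kb) and nuo6.6 (229.7 and 284 CPM per kb), both with symbols of respiratory complex I.

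**Figure D2:**
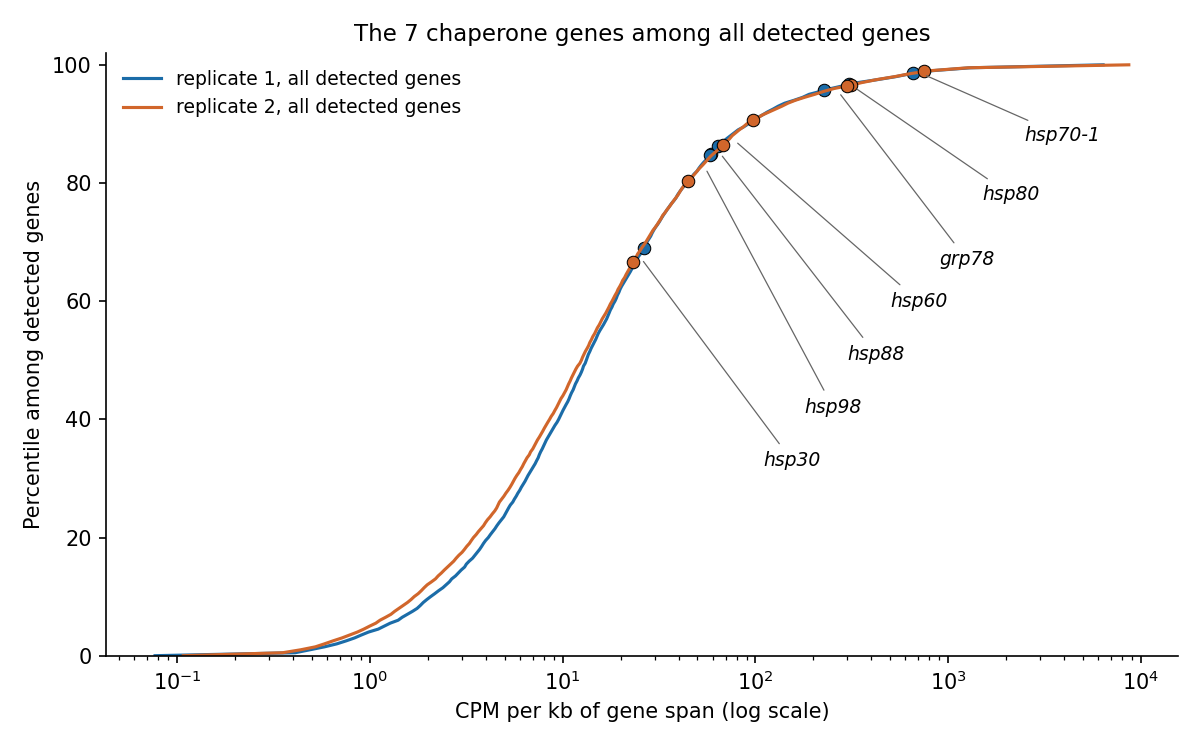
Cumulative distribution of the level of all 7774 detected genes (x axis, CPM per kb of gene span, log scale; y axis, percentile) in each library, with the 7 genes as points and each label line ending midway between the points of that gene. The 3 genes hsp70-1, hsp80 and grp78 lie above percentile 90 in both libraries, and hsp30 lies lowest at 69.0 and 66.7.

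Per kilobase of gene span the order of mean levels was hsp70-1, hsp80, grp78, hsp60, hsp88, hsp98 and hsp30. Of the 21 pairs among the 7 genes, 18 had level ranges over the 2 libraries that did not overlap. The other 3 pairs were those among hsp60, hsp88 and hsp98, whose order changed between the libraries. The step from hsp80 to grp78 was narrow, at 1.35 times in replicate 1 and 1.05 times in replicate 2, and with 2 libraries it cannot be told from the spread. With 2 values per gene the smallest two-sided p that an exact permutation test of a pair allows is 0.333, so the order is given as a description. It also depends on the length divisor. In CPM not divided by span, the mean of hsp60 (192) was below those of hsp88 (239) and hsp98 (202).

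By compartment, hsp70-1, hsp80, hsp88 and hsp98 of the cytosol made up 75.8 ± 2.77% (SD, n = 2) of the summed CPM per kb of the 7 genes. The endoplasmic reticulum gene grp78 made up 17.5 ± 1.72%, the mitochondrial gene hsp60 5.11 ± 1.35%, and hsp30 1.67 ± 0.298%. The share of hsp70-1 alone was 47.0% in replicate 1 and 47.1% in replicate 2. The list has 4 cytosolic genes against a single gene for each organelle, so these shares describe the list and not the chaperone content of the compartments.

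A search of gene symbols for the terms of protein folding found 4 further genes among those counted: hsp70-2 (NCU02075), hsp70-5 (NCU08693), hsp78 (NCU02630) and hsp90a (NCU01792). The table carries symbols and no protein descriptions, so J proteins, calnexin, disulfide isomerases and most co-chaperones could not be listed and were not analysed here. All 4 were detected. The mitochondrial Hsp70 gene hsp70-5, whose product pulls proteins through the inner membrane, had 9718 and 11166 counts, or 185 and 271 CPM per kb (228 ± 60.7; SD, n = 2). It exceeded its matrix partner hsp60 3.18-fold in replicate 1 and 2.80-fold in replicate 2.

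The gene hsp70-2, for which no compartment was assigned here, had 17212 and 11283 counts, or 352 and 294 CPM per kb (323 ± 41.1; SD, n = 2). Among the 4 Hsp70 genes, hsp70-1 held 46.3% and 46.6% of the summed CPM per kb, hsp70-2 24.7% and 18.2%, grp78 16.0% and 18.5%, and hsp70-5 13.0% and 16.8%. The share of hsp70-1 was thus nearly the same in both libraries, while hsp70-2 had the larger share than grp78 in replicate 1 and about the same in replicate 2. Whether reads of these related genes align to more than a single copy was not tested here, and the authors' row for reads aligned to several places held 3.41% and 2.48% of all reads counted.

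**Figure D3:**
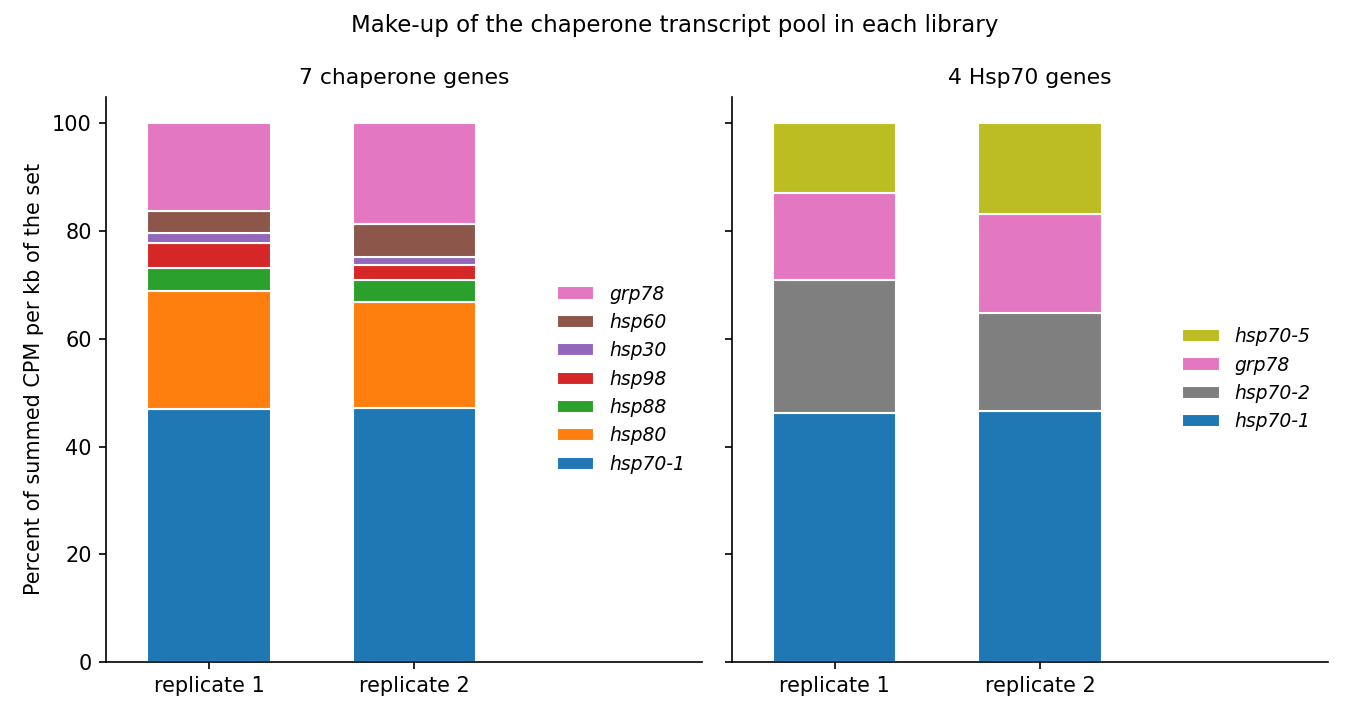
Stacked bars of the percent of the summed CPM per kb that each gene holds in replicate 1 and replicate 2, for the 7 chaperone genes (left) and for 4 Hsp70 genes (right). The hsp70-1 segment is the largest and nearly equal in both libraries, at 47.0% and 47.1% of the 7 genes, while hsp98 takes 4.58% and 2.79% and hsp60 4.15% and 6.06%.

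The Hsp100 genes could be set side by side for the cytosol and the mitochondrion. The gene hsp78, which in yeast encodes the disaggregase of the mitochondrial matrix, had 1293 and 1313 counts, or 25.9 and 33.5 CPM per kb (29.7 ± 5.38; SD, n = 2). The ratio of hsp98 to hsp78 was 2.48 in replicate 1 (exact 95% interval 2.33 to 2.64) and 1.33 in replicate 2 (1.24 to 1.42). Such ratios within a library do not depend on library scaling. The cytosolic gene was the higher in both libraries, by factors whose intervals did not overlap. Those intervals cover counting error only.

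The remaining gene found by symbol, hsp90a, had 4757 and 4693 counts, or 130.4 and 164 CPM per kb (147 ± 23.7; SD, n = 2). The Hsp90 gene hsp80 exceeded it 2.36-fold and 1.92-fold. Of the 4 loci fixed as regulators, the table gave the intended symbol to hsf-1 (NCU08512) and hsf-2 (NCU08480). Heat shock factor gene hsf-1 had 2878 and 3155 counts, or 33.5 and 46.8 CPM per kb (40.2 ± 9.40; SD, n = 2). The gene hsf-2 had 956 and 704 counts, or 15.3 and 14.3 CPM per kb (14.8 ± 0.669; SD, n = 2), close to the median detected gene, so hsf-1 was the more abundant of the heat shock factor transcripts in both libraries.

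The replicates of this strain show how far these genes differed between 2 libraries, a spread that may be technical. A two-sided exact binomial test asked, for each of 7898 genes with a summed count of at least 20, whether its reads were split between the replicates as the TMM-scaled totals were. P-values were adjusted over all these genes by the Benjamini-Hochberg method. The test is on single libraries and not on conditions, and it takes reads as independent. At an adjusted p under 0.05 and a difference of at least 2-fold, it called 0 of the 7 chaperone genes, against 6.15% of all genes tested. Without the fold minimum, 6 of 7 had an adjusted p under 0.05, as they did unadjusted, against 57.3% of all genes tested, since small differences pass at these counts. With plain gene totals in place of TMM this was 5 of 7, because hsp80 no longer passed (log2 ratio 0.03, adjusted p = 0.116 by the exact binomial test). Under TMM, 5 of 7 passed as higher in replicate 2, against 29.1% of all genes tested, and under plain totals 4 of 7, against 24.9%. The exact test of edgeR, given a shared dispersion that is a coefficient of variation of 23.9% beyond counting error, called 0 of 7, with 0 at an unadjusted p under 0.05, against 0.646% of all genes. That dispersion was estimated from the difference between the same 2 libraries, so its low count says nothing about how alike they are.

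Among the 7, hsp60 of the mitochondrion and grp78 of the endoplasmic reticulum were higher in replicate 2 by the widest margin. The gene hsp60 was 1.73-fold higher there (log2 ratio 0.79, exact 95% counting interval 0.72 to 0.87; adjusted p = 1.49e-94 by the exact binomial test). It was the only one of the 7 past 1.5-fold with an adjusted p under 0.05. Of all genes tested, 18.5% passed both limits in either direction, and 6.23% passed them as higher in replicate 2. The gene grp78 was 1.36-fold higher in replicate 2 (log2 ratio 0.44; adjusted p = 2.63e-123 by the same exact test). The other organelle genes were higher there too, hsp70-5 by 1.52-fold and hsp78 by 1.34-fold. Of the remaining genes beyond the 7, hsp90a (1.31-fold) and hsf-1 (1.45-fold) were also higher there, and hsp70-2 and hsf-2 were not. A rise in replicate 2 was thus not particular to organelle genes.

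In the cytosol the genes were split. The genes hsp70-1 and hsp88 were 1.19-fold and 1.20-fold higher in replicate 2 (log2 ratios 0.25 and 0.26), and hsp80 1.06-fold under TMM scaling, a call lost under plain totals. The disaggregase gene hsp98 was 1.39-fold higher in replicate 1 (log2 ratio −0.47, exact 95% counting interval −0.55 to −0.40; adjusted p = 1.65e-35 by the exact binomial test), opposite to hsp60. The small heat shock gene hsp30 had a log2 ratio of −0.12, with an interval from −0.29 to 0.05 and an adjusted p of 0.224 by the exact binomial test. The ratio of hsp98 to hsp60 per kilobase was 1.10 in replicate 1 (exact 95% counting interval 1.05 to 1.16) and 0.460 in replicate 2 (0.436 to 0.486).

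Beyond the 7, hsp90a was 1.31-fold higher in replicate 2, hsp70-2 1.15-fold higher in replicate 1, and hsf-1 1.45-fold higher in replicate 2. The gene hsf-2 had a log2 ratio of −0.04 (adjusted p = 0.699 by the exact binomial test). None of these 4 further folding genes and 2 factor genes was called at 2-fold, against 6.15% of all genes tested. The median log2 ratio was 0.25 over the 7 genes and 0.00 over all genes tested, and the median absolute log2 ratio was 0.26 against 0.29.

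**Figure D4:**
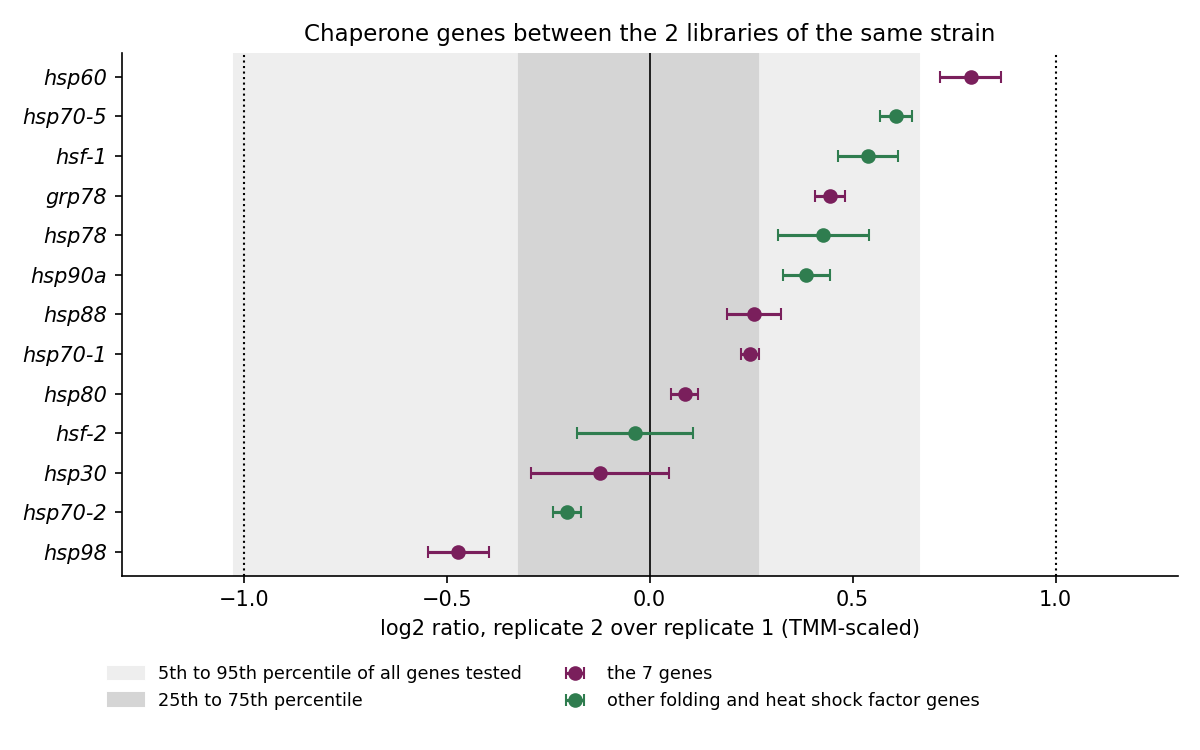
TMM-scaled log2 ratio of replicate 2 over replicate 1 for each gene (points; bars are exact 95% counting intervals), with the 5th to 95th percentile (light grey) and the 25th to 75th percentile (dark grey) of the 7898 genes tested, and dotted lines at 2-fold. The hsp60 point, at 0.79, lies beyond the light band, which ends at 0.66, and no point reaches 2-fold.

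Other genes moved between the same libraries. Of the spore genes, the exact binomial test called con-10, 4.23-fold higher in replicate 1, and con-8, 2.06-fold higher there, against 6.15% of all genes. edgeR's exact test, whose dispersion came from the same 2 libraries, called con-10 (adjusted p = 0.0205), against 0.646% of all genes. Of the other spore genes, eas was 1.47-fold higher in replicate 2 (adjusted p = 5.68e-17 by the exact binomial test), con-6 had 21 and 28 counts and acon-3 had 21 and 11. The fermentation gene cfp had 14886 and 23817 CPM, a TMM-scaled difference of 1.66-fold. The part of these differences between cultures or libraries in the values of hsp60, hsp98 and the other chaperone genes was not tested.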

How the data were processed

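For 2 poly-A RNA libraries the authors deposited raw counts by gene, as whole numbers and not normalized. Bowtie, Bowtie2, TopHat, SAMtools, DESeq and HTSeq are named for these samples, per the submitters' processing notes. Their roles and versions, the annotation, the strand setting and the genome build were not given in the sources used here, so reads of overlapping genes on opposite strands may not be assigned with certainty, and no coordinates are given.

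The 5 closing rows for reads without a gene were left out of totals and tests. Of all rows, 6.72% and 6.64% were reads outside genes, 3.41% and 2.48% reads with several alignments, and 0.0728% and 0.0771% reads matching several genes. CPM used the remaining gene totals. Symbols and gene spans came from the RefSeq table of assembly NC12, which held 9729 of 9730 loci. No protein, promoter or genome sequence was used here, so span replaced the intended coding length and no sequence is printed.

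Levels are given per library and as mean and SD (n = 2). Poisson intervals were set on counts and Clopper-Pearson intervals on shares and ratios, at 95%. Log2 ratios add 0.5 counts. Differences between the libraries were tested with an exact binomial test, checked on simulated data, and with the exact test of edgeR 4.0.16. The simulated libraries held counting error only, so the check does not cover the variation beyond it in the real libraries. Scaling alternatives used TMM and DESeq2 1.42.0 in R 4.3.3. Python 3.11.15 (pandas 2.3.3, numpy 2.4.6, scipy 1.17.1) served for all else. A quasi-likelihood test could not be fitted, as the 2 libraries are one group.

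The genes, lists and tests were chosen with earlier results of these data known. Named are the 7 genes, every counted gene whose symbol holds a fixed term of protein folding, heat shock factor loci, and for each of the 7 the 2 genes with a symbol nearest in log2 CPM per kb. Marker genes and dim-1 were named as checks of the labels.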

Additional observations from a re-analysis of the deposited data

How the results depend on the processing

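The median level of the 7 genes, 80.6 ± 23.1 CPM per kb, stayed within 1 SD under TMM scaling, DESeq2 size factors and totals without the 10 most abundant genes (90.5), and ran from 64.2 to 96.9 when either replicate was left out. The median gene itself changes, being hsp98 in replicate 1 and hsp60 in replicate 2. Single levels were less steady under totals without the 10 most abundant genes, where 4 of 7 moved beyond 1 SD. These were hsp70-1 (706 to 791 CPM per kb), hsp80 (311 to 348), hsp88 (63.6 to 71.3) and hsp30 (24.8 to 27.8). The share of counts held by the 7, 0.449%, was 0.405% over all rows, since reads without a gene enlarge the total, and ran from 0.421% to 0.476% over single replicates. The count of chaperone genes that differed between the libraries was 0 with plain totals, DESeq2 size factors and no filter on low counts, and 1 with a 1.5-fold minimum, namely hsp60. Over all 7898 genes tested the calls were 486 (6.15%) at 2-fold and 1464 (18.5%) at 1.5-fold. At 2-fold they were 500 with plain totals, 486 with DESeq2 size factors, and 507 of 8958 genes with no filter. The exact test of edgeR called 51 (0.646%). Its dispersion came from the same 2 libraries, so its 0 calls among the 7 carry no weight. No direction of the 7 log2 ratios turned under these alternatives. Without division by span, in an alternative chosen after seeing the data, hsp30 went from percentile 67.8 among detected genes to 53.0, hsp88 from 85.6 to 90.6 and hsp98 from 83.2 to 88.6. The alternative of gene span against coding length was not run, because span was the divisor throughout. Leaving out a replicate gives no test between libraries. No paired analysis was possible because the RNA libraries form a single group. Counting error is small at these depths, and the 2 libraries limit the precision.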

Other observations

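Genes that work with the mitochondrial and cytosolic chaperones were also examined, in families taken from gene symbols after values of these data had been seen. The tom and tim genes encode the import machinery of the mitochondrion, with its channels, receptors, motor parts and small carriers of the intermembrane space. Of 18 such genes, 16 had a TMM-scaled ratio above 0, against 50.2% of all genes tested. In plain CPM 15 were higher in replicate 2, and the share of all genes in that unit was not computed. Of the 18, 14 were higher in replicate 2 with an adjusted p under 0.05 by the exact binomial test. Of all genes tested, 29.1% passed in that direction. Small differences pass this test more readily at higher counts. In replicate 1 the median count over all genes was 365, and these 18 genes had from 387 (tim54) to 2239 (tom70). Their log2 ratios ran from −0.08 for tim9 to 0.81 for tim17, which had 62.0 and 105 CPM, with a median of 0.39. None differed by 2-fold or more with an adjusted p under 0.05, against 6.15% of all genes tested. edgeR's exact test called 0 of 18, against 0.646% of all genes tested, and 0 of 18 had an unadjusted p under 0.05. The dispersion in that test came from the same 2 libraries, so these 0 calls carry no weight.

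The rpt and rpn genes encode the regulatory particle of the proteasome, which degrades proteins that chaperones fail to fold. All 16 subunit genes were higher in replicate 2 with an adjusted p under 0.05 by the exact binomial test. Of all genes tested, 29.1% passed in that direction. Small differences pass this test more readily at higher counts. In replicate 1 the median count over all genes was 365, and these 16 genes had from 1260 (rpn-11) to 3619 (rpn-2). Their median log2 ratio was 0.34, with a range from 0.23 for rpn-5 to 0.73 for rpn-11. None differed by 2-fold or more with an adjusted p under 0.05, against 6.15% of all genes tested. edgeR's exact test called 0 of 16, against 0.646% of all genes tested, and 0 of 16 had an unadjusted p under 0.05. With a dispersion from the same 2 libraries, this count carries no weight. The gene rpn-4, whose yeast counterpart is a transcription activator of proteasome genes, had the opposite direction, with 437 CPM in replicate 1 and 207 in replicate 2 (log2 ratio −1.02; adjusted p = 1.37e-247 by the exact binomial test). edgeR's exact test, with that same dispersion, did not call it (unadjusted p = 0.0389, adjusted p = 0.825), which carries no weight either. The ubiquitin genes ubi and ubi::crp-6 had 1259 and 1659 CPM in replicate 1 and 1134 and 1541 in replicate 2. These values compare single libraries of the same strain, and no cause of the differences was tested.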
